A study of Mus musculus with 10 samples.

Results

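Some testis-enriched members of the miR-506 family were followed in mouse spermatozoa. They are 10 miRNA hairpins, mmu-mir-463, mmu-mir-465a, mmu-mir-470, mmu-mir-471, mmu-mir-741, mmu-mir-743a, mmu-mir-743b, mmu-mir-871, mmu-mir-880 and mmu-mir-881. They were chosen by name, and not by their levels, from the 1136 miRNA hairpins listed in the samples. Earlier results of these data were known at that point. Small RNA was sequenced from mature sperm of C57BL/6J males of the F0 generation, collected from the epididymal tail and the vas deferens. The 5 HFD-F0 samples were of males fed a high-fat diet (42% of kcal from fat). The 5 CD-F0 samples were of males fed a control diet (10% of kcal from fat). Both diets were fed for 10 weeks from 4 weeks of age. The question was how high these hairpins stand in sperm, whether they rise and fall together between samples and whether they differ between the diets. The sources used here do not say whether each sample came from a single male, so the p-values measure the spread between samples, which may be partly technical. Each sample gave 29558751 to 32178088 clean reads, and levels are given as RPM, the reads of a hairpin divided by the clean reads of the sample and scaled to 1000000.

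The miR-506 family is a group of X-linked miRNAs that has expanded and changed quickly in mammals, and in the mouse most of its hairpins lie close together near Slitrk2 and Fmr1. Its members are made in spermatogenic cells of the testis, most of all in spermatocytes, and are carried into sperm. A miRNA finds its target mRNAs mainly through its seed, the bases 2 to 8 from the 5′ end, so members with different seeds are not copies of each other in function.

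All 10 members lie on the minus strand of the X chromosome within chrX:66776757-66839125 (mm10, 62.4 kb), together with 9 other hairpins of the family. The nearest protein-coding gene at lower coordinates is Slitrk2, 115 kb away, and the nearest at higher coordinates in the annotation is Gm1140, 844 kb away. None of the family's hairpins overlaps another annotated gene, so all of them are intergenic. The hairpins of the members are 62 to 78 bases long and give 20 mature miRNAs of 21 to 23 bases, with 18 distinct seeds among them. The sequences below are those on which the results turn, from RefSeq (GRCm38.p6), written 5′ to 3′ with the seed in capitals. The first 5 show the seeds that members share, with the 5p arm of miR-743b for contrast, the next 4 the reason why reads of mir-465a are split with its relatives, and the last 4 belong to mir-471 and mir-741, the pair that varied most alike, and to mir-470, the member with the lowest p-value between the diets.
miR-743a-3p: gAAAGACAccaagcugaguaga
miR-743b-3p: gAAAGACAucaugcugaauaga
miR-743a-5p: uAUUCAGAuuggugccugucau
miR-871-5p: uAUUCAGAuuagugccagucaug
miR-743b-5p: uGUUCAGAcugguguccauca
miR-465a-5p: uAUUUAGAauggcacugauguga
miR-465b-5p: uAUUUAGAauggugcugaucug
miR-465c-5p: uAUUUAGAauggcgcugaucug
miR-465a-3p: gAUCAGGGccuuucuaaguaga
miR-471-5p: uACGUAGUauagugcuuuucac
miR-741-5p: uACGUAGAuugguaccuaucaug
miR-470-5p: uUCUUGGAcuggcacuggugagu
miR-470-3p: aACCAGUAccuuucugagaaga

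Counted from 1 at the 5′ end, miR-743b-3p differs from miR-743a-3p by C9U, A12U and G18A, all outside the seed AAAGACA that both carry. On the 5p arm miR-743a shares the seed AUUCAGA with miR-871, from which it differs by G11A and U17A over 22 bases, and not with miR-743b, whose seed differs at A2G. miR-471-5p and miR-741-5p have the same base at 15 of 22 positions and differ in the seed at U8A. The mature miR-465a-3p is identical to miR-465b-3p over its 22 bases, and the 5p arm differs from that of miR-465c by A14G and G20C. Reads that match several hairpins equally are divided between them by the authors' program, and the value of mir-465a was therefore not a whole number in 10 of 10 samples. The values of mir-743a and mir-871 were not whole in 3 samples each and those of mir-743b and mir-463 in 2 each, while mir-470, mir-471, mir-741, mir-880 and mir-881 had whole counts throughout. The files count reads per hairpin, so the 5p and 3p arms could not be separated.

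As a check of the cell type, the germ cell miRNAs mir-34b, mir-34c and mir-449a were all abundant, at 1984 to 3641, 1851 to 2898 and 3179 to 8934 RPM over the 10 samples. mir-449b and mir-449c, the other 2 of the 5 germ cell miRNAs listed, stayed between 0.823 and 3.21 RPM. Markers of other cells were present too. The 6 epithelial miRNAs summed to 5519 ± 1194 RPM in CD-F0 and 6890 ± 1574 RPM in HFD-F0, the 10 listed smooth muscle and stromal miRNAs to 31024 ± 3985 and 33921 ± 8855 RPM, the 8 listed blood and immune miRNAs to 1984 ± 384 and 2215 ± 666 RPM and the Sertoli cell miRNA mir-202 to 29.5 ± 7.93 and 37.6 ± 5.18 RPM (each SD, n = 5). The ranges of the diet groups overlapped for the sum of every list. Single markers could differ more. The immune marker mir-223 did not overlap between the diets, at 342 to 377 RPM in CD-F0 and 449 to 584 RPM in HFD-F0. Of the tested miRNA features 3.21% did not overlap. The smooth muscle marker mir-145a (ratio of means 2.25) and the epithelial marker mir-429 (1.20) were above every CD-F0 sample in 4 of 5 HFD-F0 samples. The smooth muscle list was mixed, with ratios of 0.959 for mir-199a-1, 0.989 for mir-1a-1 and 1.18 for mir-133b. All epithelial markers had ratios above 1, from 1.11 for mir-141 to 1.48 for mir-200b. In the blood and immune list mir-451a had a ratio of 0.859, and the others ran from 1.21 for mir-142a to 2.03 for mir-486a. Apart from mir-223, the ranges of the diets overlapped for every marker. The part of these markers in the results below was not tested. HFD-F0 replicate 1 stood apart with 23.5% of its clean reads annotated as miRNA, against 14.5% to 19.01% in the other 9 samples. Its values are given with the rest. In bulk samples of this kind, fewer cells of a type and less RNA per cell cannot be told apart.

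The 10 members spanned a 26.9-fold range of mean level and were all among the better represented miRNAs of sperm. mir-871 stood highest at 1033 RPM over the 10 samples, the 45th of the 1136 listed miRNA hairpins, and mir-471 followed at 867 RPM. A middle group held mir-470 at 492, mir-741 at 403, mir-463 at 329 and mir-465a at 291 RPM. mir-881 at 197, mir-743a at 136, mir-880 at 59.6 and mir-743b at 38.5 RPM stood lowest, and mir-743b was still the 182nd hairpin. In the middle group the SDs over samples were 141 RPM for mir-470, 60.4 for mir-741, 43.3 for mir-463 and 67.2 for mir-465a. mir-470 was above mir-741 in 8 of 10 samples, and mir-463 above mir-465a in 8 of 10. The difference within these pairs was not tested. mir-741 was above mir-463 in all 10. mir-871 was the highest and mir-471 the next in all 10 samples, and mir-881, mir-743a, mir-880 and mir-743b held the last 4 places, in that order, in all 10. mir-470 took the third place in 8 samples and fell as low as the fifth. These are levels per hairpin and not per length, since a read covers a whole mature miRNA.

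**Figure D1:**
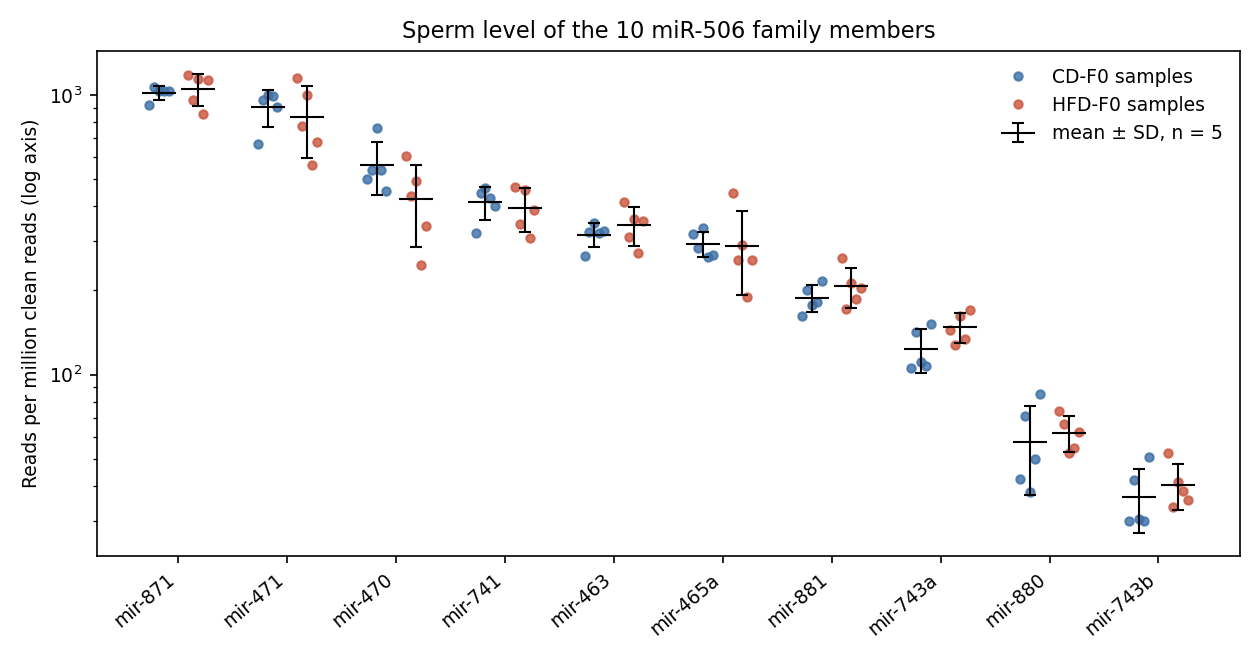
Level of each member in RPM (log axis) in the 5 CD-F0 samples (blue) and the 5 HFD-F0 samples (red), with 1 point a sample and the mean ± SD in black. The order from mir-871 to mir-743b is the same in both diets and the points of the diets overlap for each member.

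Neighbours in the cluster differed in level. mir-743a and mir-743b, whose hairpins lie 0.437 kb apart, were at 136 and 38.5 RPM, and mir-880 and mir-881, with only mir-878 between them, were at 59.6 and 197 RPM. The most abundant member, mir-871, lies 33.7 kb from mir-743a and near the middle of the cluster. At the far end mir-465a, at 291 RPM, stands beside its close relatives with much higher values, with mir-465b-1 and mir-465b-2 at 916 RPM each and mir-465c-1 and mir-465c-2 at 1083 RPM each. The pairs had equal values because identical sequences share their reads. With mir-465d there are 6 such hairpins. mir-465a held 6.70% of their reads on average, and the 6 together held 52.6% of the reads of all 21 listed hairpins of the family.

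**Figure D2:**
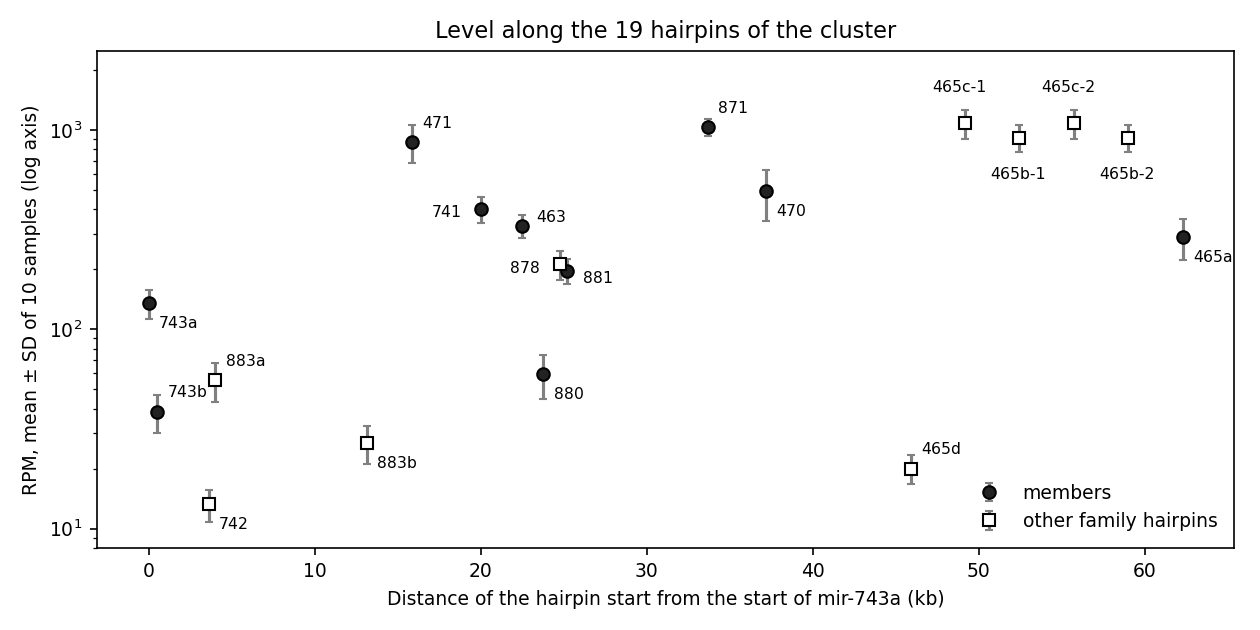
Mean level in RPM (log axis, bars: SD of 10 samples) against the distance of the hairpin start from that of mir-743a in kb, for the 19 hairpins of the cluster. Filled circles are the members and open squares the other family hairpins; neighbours such as mir-880 and mir-881 differ in level.

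Together the members gave 3325, 4070, 4293, 3946 and 3886 RPM in CD-F0 replicates 1 to 5 and 4797, 3477, 4201, 2841 and 3612 RPM in HFD-F0 replicates 1 to 5. The highest and the lowest sum were both HFD-F0 samples, replicates 1 and 4, so the ranges overlapped. The mean was 3904 ± 359 RPM (SD, n = 5) in CD-F0 and 3786 ± 744 RPM (SD, n = 5) in HFD-F0, a ratio of 0.970. Without HFD-F0 replicate 1, the highest, the ratio was 0.905, and without HFD-F0 replicate 4, the lowest, it was 1.03, on the other side of 1. The difference was smaller than the spread between samples. As a share of all miRNA reads the members made up 2.31% ± 0.232 (SD, n = 5) in CD-F0 and 2.05% ± 0.372 (SD, n = 5) in HFD-F0, and the HFD-F0 samples, from 1.56% to 2.49%, again overlapped the CD-F0 samples, from 1.94% to 2.57%. With all 21 listed hairpins the family reached 8305 ± 489 RPM in CD-F0 and 8053 ± 1686 RPM in HFD-F0 (SD, n = 5 each).

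Between the diets, no member passed the thresholds of the study, an unadjusted significance level of 0.05 together with an absolute log2 fold change of at least 1, in edgeR's quasi-likelihood test over 814 small RNA features, and none passed after adjustment. With DESeq2 both counts were also 0. On the unadjusted level alone 1 of the 10 members passed with either tool, mir-470. Over all tested features 3.69% passed both thresholds, 10.2% passed the unadjusted level alone and 0.123% passed after adjustment. Over the 529 miRNA features 2.84% passed both thresholds and 9.64% the unadjusted level alone, so the members' share of 1 in 10 was that of the background. The fitted values were higher in HFD-F0 for 5 members and lower for 5, while 51% of all features and 55.4% of miRNA features were lower, with a median log2 fold change of -0.02 against -0.01 over all features. The median size of the change was 0.10 on the log2 scale, against 0.20 over all features. All 10 members passed the filter on low counts, and the diet groups overlapped in RPM for all 10, while 3.93% of all tested features and 3.21% of miRNA features did not overlap.

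miR-470 is known from stem cells for acting on the mRNAs of the pluripotency factors Nanog and Oct4. mir-470 was at 500, 540, 763, 539 and 454 RPM in CD-F0 replicates 1 to 5. In HFD-F0 replicates 1 to 5 it was at 606, 435, 493, 247 and 339 RPM. HFD-F0 replicates 2, 4 and 5 lay below the lowest CD-F0 sample, and replicates 1 and 3 lay within the CD-F0 range. The mean was 559 ± 119 RPM (SD, n = 5) in CD-F0 and 424 ± 138 RPM (SD, n = 5) in HFD-F0. The log2 fold change was -0.51 (SE 0.21, 95% interval -0.92 to -0.11) with an adjusted p of 0.410 in edgeR, so the difference did not pass after adjustment. The interval has normal limits, which are narrower than the edgeR test implies. The unadjusted value in edgeR was 0.0279, the 55th of the 814 features. An exact permutation test of log2(RPM + 1), two-sided and chosen after the values were seen, gave p = 0.135. RPM is over clean reads, without the scaling between samples that edgeR used (TMM), so the 2 values differ in scaling as well as in test. Among all features 4.05% passed the unadjusted level in this direction. Without HFD-F0 replicate 4, HFD-F0 replicate 5 or CD-F0 replicate 3 the unadjusted edgeR value was 0.0716, 0.0618 and 0.0781, and with clean reads as library size it was 0.114 at a log2 fold change of -0.40, so the level was not reached in these 4. Without HFD-F0 replicate 1 the log2 fold change of mir-470 was -0.64 and the unadjusted value 0.0136. The summed germ cell miRNAs were also below the lowest CD-F0 sample, 10478 RPM, in HFD-F0 replicates 2, 4 and 5, at 9203, 7275 and 10139 RPM, and their part in the result was not tested. The germ cell miRNAs did not move as one. mir-449a had a ratio of HFD-F0 to CD-F0 means of 0.789, while the ratios of mir-34b and mir-34c were 1.07 and 1.08, and mir-34b was above its lowest CD-F0 value in all 5 HFD-F0 samples.

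Relative to mir-871, the most abundant member and 3.45 kb away, mir-470 was lower on average in HFD-F0. This comparison uses the same mir-470 values as above and is not separate support for a difference. The ratio of the 2 levels was 0.551 ± 0.114 (SD, n = 5) in CD-F0 and 0.399 ± 0.0988 (SD, n = 5) in HFD-F0. HFD-F0 replicates 3, 4 and 5 lay below the lowest CD-F0 sample, and the ranges, 0.440 to 0.742 and 0.290 to 0.514, overlapped.

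miR-471 has been studied in Sertoli cells, where its 5p arm takes part in the clearance of dying germ cells. mir-471 was at 665, 955, 997, 990 and 903 RPM in CD-F0 and at 1149, 774, 998, 561 and 678 RPM in HFD-F0, in the order of the replicates. Its HFD-F0 samples held both the highest and the lowest value. The fitted log2 fold change was -0.23 (SE 0.17, adjusted p = 0.675 in edgeR), and -0.34 without HFD-F0 replicate 1. mir-741 showed nearly the same order of samples at a lower level, with 321, 444, 465.2, 429 and 402 RPM in CD-F0 and 469, 345, 457, 308 and 386 RPM in HFD-F0. The fitted log2 fold change of mir-741 was -0.17 (SE 0.14, adjusted p = 0.724 in edgeR). For both, the spread between samples of a diet exceeded the difference between the diets.

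mir-871 had the tightest control values of the members, 916, 1071, 1029, 1034 and 1030 RPM in CD-F0, a coefficient of variation of 5.75%, and was at 1180, 955, 1135, 851 and 1127 RPM in HFD-F0. The 3 HFD-F0 replicates 1, 3 and 5 lay above the highest CD-F0 sample and replicate 4 lay below the lowest. The log2 fold change of mir-871 was -0.05 (SE 0.12, adjusted p = 0.927 in edgeR), with a 95% interval from -0.29 to 0.18. The sign depended on the scaling, and was 0.05 when clean reads alone set the library size. mir-463 was at 265, 322, 349, 321 and 325 RPM in CD-F0 and 414, 311, 359, 273 and 353 RPM in HFD-F0. HFD-F0 replicates 1, 3 and 5 were again the high ones, and the log2 fold change of mir-463 was 0.01 (SE 0.13, adjusted p = 0.991 in edgeR).

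mir-465a was at 318, 283, 333, 263 and 268 RPM in CD-F0 and at 447, 256, 291, 190 and 257 RPM in HFD-F0. HFD-F0 replicates 2, 4 and 5 lay below every CD-F0 sample while replicate 1 was the highest of the 10. The SD was 30.9 RPM (n = 5) in CD-F0 and 95.9 RPM (n = 5) in HFD-F0, and the log2 fold change was -0.15 (SE 0.18, adjusted p = 0.859 in edgeR). It was -0.32 without HFD-F0 replicate 1, -0.046 without HFD-F0 replicate 4 and -0.025 with clean reads as library size. Its values include reads divided with mir-465b, mir-465c and mir-465d, so they are uncertain to that extent.

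miR-743a has been described as a regulator of the mitochondrial malate dehydrogenase Mdh2. mir-743a was at 105, 142, 111, 107 and 152 RPM in CD-F0 and 144, 128, 162, 133 and 170 RPM in HFD-F0, the largest upward log2 fold change among the members. HFD-F0 replicates 3 and 5 exceeded every CD-F0 sample, the other 3 lay within the CD-F0 range, and the log2 fold change was 0.17 (SE 0.17, adjusted p = 0.803 in edgeR). mir-743b, which shares the seed of its 3p arm, was at 29.8, 41.9, 30.5, 30.0 and 50.9 RPM in CD-F0 and 52.6, 33.7, 41.4, 38.4 and 35.5 RPM in HFD-F0. The log2 fold change of mir-743b was 0.03 (SE 0.19, adjusted p = 0.991 in edgeR), and the ranges overlapped almost wholly. The ratio of mir-743a to mir-743b was 3.43 ± 0.259 (SD, n = 5) in CD-F0 and 3.75 ± 0.739 (SD, n = 5) in HFD-F0.

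mir-880 was at 42.2, 71.2, 38.0, 49.9 and 85.3 RPM in CD-F0 and at 74.1, 66.7, 52.3, 54.6 and 62.1 RPM in HFD-F0. All HFD-F0 samples lay inside the CD-F0 range, which was the widest of the members relative to its mean, with a coefficient of variation of 35.2%. mir-881 was at 162, 200.3, 177, 182 and 215 RPM in CD-F0 and at 261, 172, 212, 186 and 204 RPM in HFD-F0. Here HFD-F0 replicate 1 alone exceeded the CD-F0 range. The log2 fold changes of mir-880 and mir-881 were 0.02 (SE 0.23) and 0.04 (SE 0.13), with adjusted p-values of 0.991 and 0.961 in edgeR.

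Of the 13 other mouse hairpins of the family that were looked for, 11 were listed, mir-509 and mir-890 not being among them, and all 11 passed the filter. None passed the unadjusted level in edgeR, with or without the fold threshold, and DESeq2 gave 0 as well, while mir-465c-1 and mir-465c-2, which share their reads, did so in edgeR without HFD-F0 replicate 1. The values were higher in HFD-F0 for 5 and lower for 6, with a median log2 fold change of -0.10, and of -0.20 without HFD-F0 replicate 1. The lowest, mir-547, was at 2.93 ± 0.926 RPM in CD-F0 and 2.40 ± 1.20 RPM in HFD-F0 (SD, n = 5 each), with a log2 fold change of -0.43 (SE 0.35, adjusted p = 0.718 in edgeR), and -0.69 without HFD-F0 replicate 1. The highest, mir-742, had a log2 fold change of 0.13 (SE 0.17, adjusted p = 0.898 in edgeR). The abundant mir-465c-1 and mir-465c-2 shared a value of -0.22 (SE 0.14, adjusted p = 0.609 in edgeR).

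**Figure D3:**
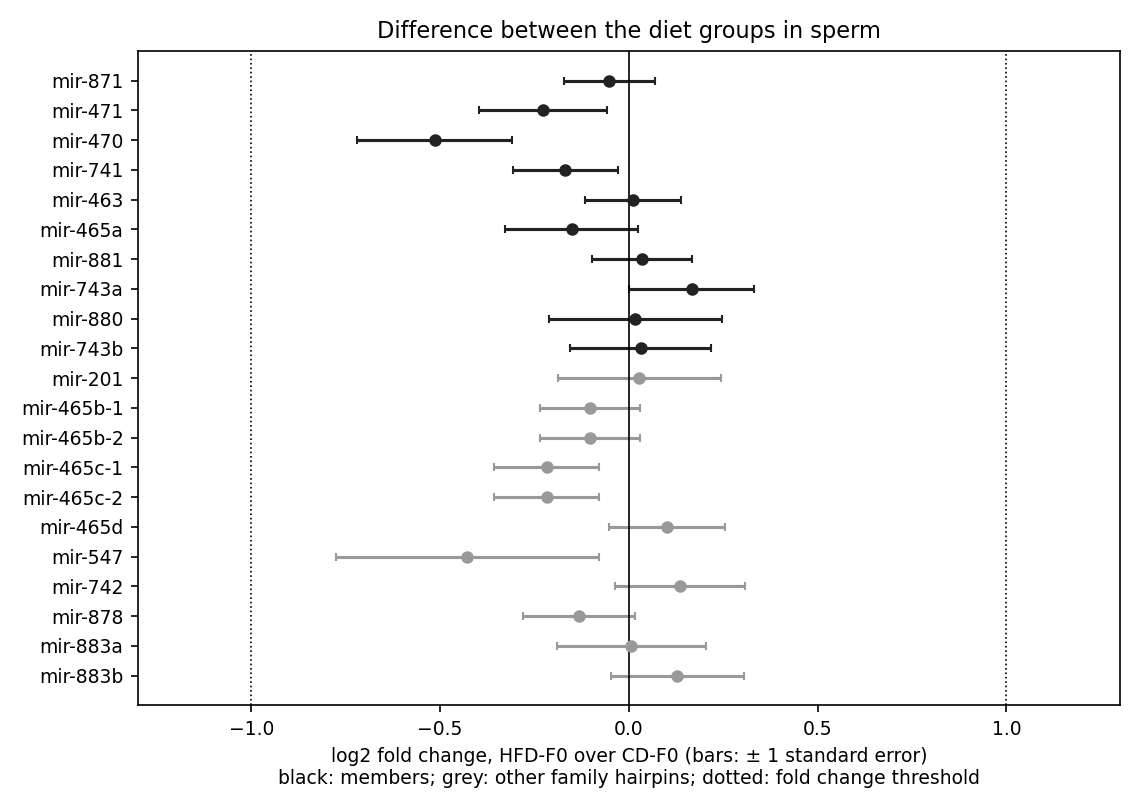
Log2 fold change of HFD-F0 over CD-F0 from edgeR for the 10 members (black) and the 11 other listed family hairpins (grey), with bars of ± 1 standard error and dotted lines at the fold change threshold. The values run from -0.51 for mir-470 to 0.17 for mir-743a, and none reaches a dotted line.

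Spread within a diet was compared with that of other abundant miRNAs, as a description. For the 8 members with a mean of at least 100 RPM the median coefficient of variation was 12.3% in CD-F0 and 17.1% in HFD-F0, against 18.3% and 22.5% for the 134 miRNA hairpins at that level. Both medians of the members were the lower ones, and counting error was smaller still. In the sample where each was lowest, the 95% Wilson interval reached 1.19% to either side of the value for mir-871 and 6.51% for mir-743b, the least abundant. In RPM, HFD-F0 replicate 1 was above the median of the 10 samples for 10 of 10 members and the highest for 7 of them. HFD-F0 replicate 4 was below the median for 9 and the lowest for 5, and CD-F0 replicate 1 was below it for 8 and the lowest for 4. The place of HFD-F0 replicate 1 depended on the denominator. Of all miRNA reads its members made up 2.04%, below the mean of 2.18% over the 10 samples, and CD-F0 replicate 4 was highest at 2.57%.

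Within each sample the members were also compared as shares of their sum. mir-463 made up 7.97%, 7.91%, 8.13%, 8.14% and 8.36% of the members' reads in CD-F0 and 8.64%, 8.96%, 8.55%, 9.61% and 9.77% in HFD-F0, so the diets did not overlap. It was the only member of the 10 for which they did not, and 3.59% of the tested miRNA features divided by the same sum did not overlap either. This comparison was added after the values were seen. With mir-470 left out of the sum, the mir-463 share ran from 9.12% to 9.89% in CD-F0 and from 9.69% to 10.8% in HFD-F0. The ranges then overlapped. Of the 5 HFD-F0 samples 4 were still above the highest CD-F0 sample, replicate 1 only narrowly (9.8895% against 9.8879%). The share of mir-470 was 14.3% ± 2.29 in CD-F0 and 10.99% ± 1.83 in HFD-F0 (SD, n = 5 each).

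Across the 10 samples most members rose and fell together. On log2(RPM + 1), Pearson's r between members had a median of 0.54 over the 45 pairs and was positive for 40 of them. After Benjamini-Hochberg adjustment over 49 relations, 10 pairs passed with Pearson's r and 8 with Spearman's rho in a permutation test, two-sided. With each diet's mean removed the median was 0.63 and 42 pairs were positive, so the covariation was also present within the diets. With miRNA reads instead of clean reads as denominator the median was 0.49, and without HFD-F0 replicate 1 it was 0.46. Leaving out the 2 samples farthest from the median of the first member of each pair, r was positive for 31 pairs. Some pairs turned sign, such as mir-871 and mir-465a, with r of 0.62 over all samples and -0.24 without 2. mir-470 and mir-743b turned the other way, from -0.064 to 0.26. All pairs share the library and its read total. The share of passing pairs among other miRNAs is not given here, so these counts are not set against sperm miRNAs in general. Hairpins outside the family also varied with the members, with r up to 0.929 between mir-449a and the members' sum.

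mir-471 and mir-741 were the pair most alike, with r = 0.927 and rho = 0.964 (permutation p = 0.00032 and 5e-05, adjusted 0.00527 for r), and r was 0.831 without the 2 farthest samples. mir-871 and mir-463 had r = 0.916 and rho = 0.879 (permutation p = 0.00024 and 0.00178, adjusted 0.00527 for r), and r was 0.874 without 2 samples. mir-881 and mir-743b had r = 0.880 and rho = 0.891 (permutation p = 0.00042 and 0.00115, adjusted 0.00527 for r), and 0.804 without 2 samples. All 3 pairs were picked for the highest r among members. Each kept a high r without the 2 samples farthest for its first member, and no p-value was computed for the samples left.

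At the other end, mir-470 and mir-743a had r = -0.368 and rho = -0.333 (permutation p = 0.303 and 0.351, adjusted 0.464 for r), mir-470 and mir-880 had r = -0.231 (permutation p = 0.527, adjusted 0.673) and mir-465a and mir-743a had r = -0.0771 (permutation p = 0.840, adjusted 0.90). None of these passed, and without the 2 farthest samples r was -0.416, -0.0462 and -0.467. In the matrix mir-743a, mir-743b, mir-880 and mir-881 had r of 0.64 to 0.88 with each other, and mir-471, mir-741, mir-463, mir-871, mir-470 and mir-465a had r of 0.47 to 0.93 with each other. The sets were not cleanly apart, since mir-881 had r = 0.787 with mir-463 (permutation p = 0.00769, adjusted 0.0419), which fell to 0.380 without the 2 farthest samples, and r = 0.740 with mir-871. They were read from the matrix after the values were seen and were not tested. The sets do not follow the chromosome, since mir-880 and mir-881 lie between mir-463 and mir-871. For the 14 pairs within 10 kb the median r was 0.61, and for the 31 pairs farther apart it was 0.49.

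**Figure D4:**
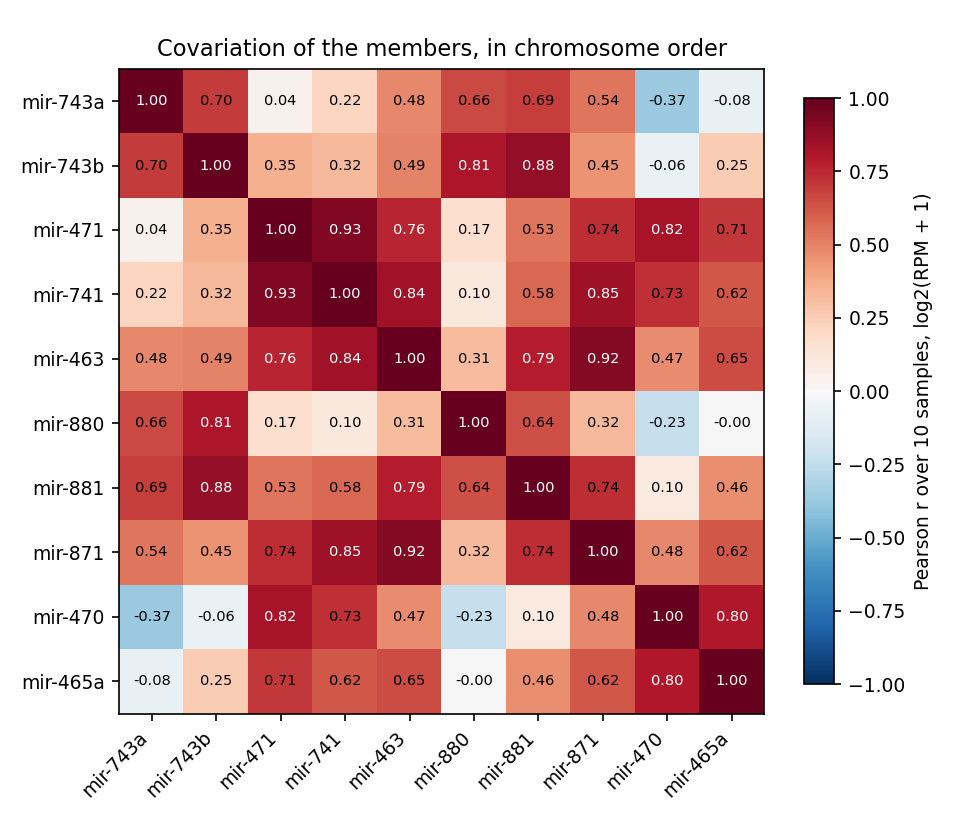
Pearson's r between the members on log2(RPM + 1) over the 10 samples, in chromosome order, from blue at -1 to red at 1. Most cells are red, mir-471 with mir-741 reaches 0.93, and mir-470 with mir-743a is the lowest at -0.37.

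The summed members varied with the summed germ cell miRNAs. The germ cell miRNAs together were at 10478, 12648, 12223, 12135 and 10783 RPM in CD-F0 and 15064, 9203, 10750, 7275 and 10139 RPM in HFD-F0, the highest and the lowest again being HFD-F0 replicates 1 and 4. Pearson's r with the summed members was 0.923 and Spearman's rho 0.867 (permutation p = 0.00043 and 0.00227, adjusted 0.00527 and 0.0278). Without HFD-F0 replicates 1 and 4, the 2 samples farthest out, r was 0.717. Both sums are over clean reads, and HFD-F0 replicate 1 had the highest share of clean reads annotated as miRNA, 23.5%. The germ cell sum is mostly mir-449a. mir-34b went otherwise, being highest in CD-F0 replicate 1, at 3641 RPM, where the members' sum was the second lowest, and lowest in CD-F0 replicate 2, at 1984 RPM, where the members' sum was 4070 RPM. With the epithelial list r was -0.117 and rho was -0.333 (permutation p = 0.751 and 0.349, adjusted 0.89 and 0.492), and without the same 2 samples r was -0.725. With the smooth muscle list r was 0.0615 and with the blood list 0.08998 (permutation p = 0.860 and 0.801, adjusted 0.90 and 0.892).

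**Figure D5:**
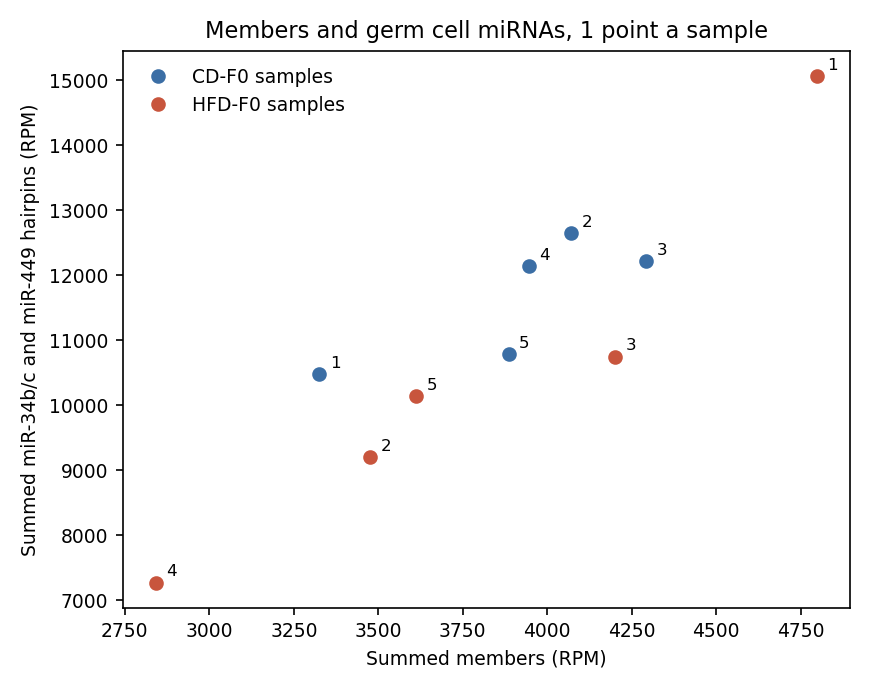
Summed germ cell miRNAs (mir-34b, mir-34c and the mir-449 hairpins) against the summed members, both in RPM, with 1 point a sample and its replicate number, CD-F0 in blue and HFD-F0 in red. HFD-F0 replicate 1 lies at the top right with 4797 RPM of members and 15064 RPM of germ cell miRNAs, and HFD-F0 replicate 4 at the bottom left with 2841 and 7275 RPM.

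Among the 271 miRNA hairpins outside the family with a mean of at least 10 RPM, the 5 whose log2(RPM + 1) was most like the summed members over the 10 samples were mir-449a, mir-669f, mir-19b-2, mir-19b-1 and mir-19a. Their Pearson's r was 0.929, 0.919, 0.905, 0.905 and 0.894, and with miRNA reads as denominator it was 0.895, 0.855, 0.886, 0.884 and 0.858. mir-449a, one of the germ cell markers, was at 6356 RPM on average and the other 4 were between 31.0 and 115 RPM. These values are a description, since the hairpins were picked for the highest r, and mir-19b-1 and mir-19b-2 share a mature sequence and thus reads.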

How the data were processed

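The study's methods describe adapters with molecular identifiers, whereas the labels name an NEB small RNA kit, and which was used is not settled here. The authors annotated the clean reads with SPORTS, which aligned them with Bowtie (1 mismatch allowed); the submitters' processing notes name Bowtie and the mm10 build. The versions, and whether any identifiers were collapsed, are not given in the sources used here. The deposited values are estimated counts of reads per annotated RNA, without normalization, and can be fractions where reads match several hairpins equally.

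Genome-matched and unmatched reads were added per hairpin, an unlisted hairpin counted as 0, and RPM was taken over clean reads. For testing, 1470 features were rounded to whole counts and filtered with filterByExpr, which left 814. Groups followed the sample labels (5 HFD-F0, 5 CD-F0) and were compared by edgeR 4.0.16 (TMM, quasi-likelihood test, no covariate) with Benjamini-Hochberg adjustment over all features. The SE was derived from the statistic of that test. A 95% interval is the fold change with its normal limits, which are narrower than those of the quasi-likelihood test. DESeq2 1.42.0, other scalings and filters, a replicate block and leaving out each sample were alternatives. The code was tested on simulated data. Correlations used log2(RPM + 1), a pseudocount of 1 RPM, and 100000 permutations. Wilson intervals cover counting error only, since PCR reads are not independent molecules. Sequences and positions came from RefSeq (GRCm38.p6) and neighbouring genes from GENCODE M21; all 10 members matched.

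Named were all members, the other listed family hairpins, the 3 highest and 3 lowest correlations among members and the 5 miRNAs most like the summed members. The members, marker lists and family list were chosen with earlier results of these data known. Samples with the same replicate number were not treated as pairs. No pair of libraries was a duplicate within sampling noise.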

Additional observations from a re-analysis of the deposited data

Results flagged for a closer look

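In 3 of the 50 sets of 5 samples examined, 1 sample lay far from the other 4 by Dixon's criterion, and chance gives about 1 in 20. All 3 were CD-F0 samples. mir-470 in CD-F0 replicate 3 was at 763 RPM while the other 4 were between 454 and 540.0 RPM. mir-471 in CD-F0 replicate 1 was at 665 RPM, against 903 to 997 RPM in the other 4, and mir-871 in the same sample was at 916 RPM, against 1029 to 1071 RPM. CD-F0 replicate 1 also had the lowest share of genome-matched reads, 64.9% against 68.6% to 75.2% in the other 9 samples, and the part of that share in these values was not tested.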

How the results depend on the processing

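No member passed both thresholds under any of the 17 alternatives. Over all features 30 passed, and 93 did without the filter, 19 with at least 10 counts in every sample and 12 among miRNA features only; leaving out 1 sample gave 22 to 50, the highest without CD-F0 replicate 5. For mir-470 the unadjusted level of 0.05 was passed in 13 of 17 alternatives, the exceptions being clean reads as library size (log2 fold change -0.40, unadjusted value 0.114) and the omission of HFD-F0 replicate 4, HFD-F0 replicate 5 or CD-F0 replicate 3, and its adjusted p ran from 0.220 to 0.735. Small log2 fold changes turned sign: mir-871 was 0.047 with clean reads as library size and 0.0088 among miRNA features only, mir-465b-1 and mir-465b-2 were 0.0088 with clean reads, and mir-883a was -0.0020 with DESeq2 and -0.0036 with at least 10 counts. Leaving out 1 sample gave -0.042 to 0.062 for mir-463, -0.052 to 0.18 for mir-743b, -0.11 to 0.20 for mir-880, -0.034 to 0.085 for mir-881, -0.069 to 0.14 for mir-201 and -0.12 to 0.069 for mir-883a; the cause was not tested. Same-numbered samples correlated at -0.191 to 0.336 in their deviations and were not treated as pairs. With the replicate number as a block, 25 features and 0 members passed, and mir-470 had a log2 fold change of -0.54 with an adjusted p of 0.410 in edgeR. Counting error was small, but 5 samples a diet leave an SE of 0.12 to 0.23 (log2) for a member.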
